A study of Mus musculus with 2 samples.

Results

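The 10 genes described here belong to the glucocorticoid axis: Star and Hsd11b1, which act in steroid supply, Nr3c1, which encodes the glucocorticoid receptor, and 7 genes known to respond to it, Zbtb16, Depp1, Fkbp5, Tsc22d3, Klf9, Sgk1 and Pdk4. They were found by gene symbol in the platform annotation, where all 10 had at least 1 probe set, and they make up 10 of the 18193 genes and 31 of the 45037 non-control probe sets measured. The genes were chosen with the ratio between these same arrays in view, so their values are a description and not a test. Gene expression was measured on 2 Affymetrix mouse arrays of 1 design, with 1 array for hair follicles of dnFGFR2-IIIb transgenic mice and 1 array for hair follicles of wildtype mice. Each array received total RNA of about 300 pooled follicles, about 100 from each of 3 mice of separate litters, taken at postnatal day 10. All animals shared that age, and the transgene is named after the IIIb splice form of the FGF receptor Fgfr2. Neither its promoter nor the cells that express it nor the strain is stated in the labels. There were no replicate arrays, so no p-values are given, and pooling hides the spread between mice.

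Glucocorticoids are made from cholesterol, which the protein of Star carries into mitochondria for the first enzymatic step. The enzyme encoded by Hsd11b1 regenerates active hormone from its inert keto form inside target cells. The receptor rests in the cytoplasm with heat shock proteins and cofactors such as the protein of Fkbp5, moves to the nucleus when it binds hormone, and switches on or represses genes there. Skin and hair follicles can make steroid hormones locally, and glucocorticoids are known to restrain keratinocyte proliferation and inflammation in skin. Several of the responsive genes also answer to other signals. Depp1 and Pdk4, for example, are known targets of the FoxO transcription factors, which insulin signalling holds out of the nucleus.

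Promoter windows of 4 members are shown to set the sequence at their starts, searched for motifs of the receptor and of FoxO factors, beside their values. Sites far from a start are not covered. Of the 10 members, 7 had an entry in the RefSeq table of build GRCm38.p6, with 14 windows between them, each running from 250 bases before to 50 bases after an annotated start. The windows shown are Depp1 (chr6:116650434-116650733, plus strand), Sgk1 (chr10:21993640-21993939, plus strand, 1 of 6 windows of this gene), Tsc22d3 (chrX:140600473-140600772, minus strand, 1 of 3 windows) and Klf9 (chr19:23140976-23141275, plus strand). Capitals mark the receptor palindrome in Sgk1, its 6-base arm in Tsc22d3 and the FoxO core in Klf9, and Depp1 held none of the motifs searched.
Depp1: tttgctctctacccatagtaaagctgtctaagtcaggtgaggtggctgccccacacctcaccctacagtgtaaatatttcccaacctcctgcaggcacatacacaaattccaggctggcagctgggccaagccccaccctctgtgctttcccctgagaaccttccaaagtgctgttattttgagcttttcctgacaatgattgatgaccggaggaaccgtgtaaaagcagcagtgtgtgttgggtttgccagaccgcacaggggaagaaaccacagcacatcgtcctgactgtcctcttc
Sgk1: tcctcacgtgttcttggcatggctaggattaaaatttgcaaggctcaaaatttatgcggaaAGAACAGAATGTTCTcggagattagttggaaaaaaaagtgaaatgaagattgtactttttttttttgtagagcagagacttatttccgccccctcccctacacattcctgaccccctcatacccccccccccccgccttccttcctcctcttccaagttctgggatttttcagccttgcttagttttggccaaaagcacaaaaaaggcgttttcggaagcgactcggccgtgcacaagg
Tsc22d3: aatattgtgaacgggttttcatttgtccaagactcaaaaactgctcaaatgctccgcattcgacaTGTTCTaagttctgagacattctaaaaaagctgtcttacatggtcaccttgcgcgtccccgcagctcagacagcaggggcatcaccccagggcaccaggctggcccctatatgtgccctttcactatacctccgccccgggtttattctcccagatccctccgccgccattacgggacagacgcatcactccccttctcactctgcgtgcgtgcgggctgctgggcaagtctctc
Klf9: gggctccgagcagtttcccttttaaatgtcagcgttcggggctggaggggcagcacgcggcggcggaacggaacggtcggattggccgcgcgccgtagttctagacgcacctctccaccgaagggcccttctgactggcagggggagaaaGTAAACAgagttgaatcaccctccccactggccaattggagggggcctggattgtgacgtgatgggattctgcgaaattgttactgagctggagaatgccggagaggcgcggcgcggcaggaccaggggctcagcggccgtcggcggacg

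The palindrome searched was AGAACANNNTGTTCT, the ideal form of the element that the receptor binds as a pair. It was present in 3 of all 32851 promoter windows (0.00913%), and 1 of these was the Sgk1 window shown, where it began 189 bases before the annotated start. Its arm, TGTTCT on either strand, occurs within the palindrome too and was present in 19% of all windows and in 4 of the 14 member windows, 3 of Sgk1 and 1 of Tsc22d3. In Tsc22d3 it began 185 bases before the start. The FoxO core GTAAACA on either strand was present in 3.65% of all windows and in those of Hsd11b1 and Klf9, beginning 100 bases before the start in Klf9. A match is a run of letters and not a measured binding site, and the absence of a match says only that these letters are not in this window.

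Zbtb16, Depp1 and Star stood far lower on the transgenic array. Nr3c1, Fkbp5, Tsc22d3, Klf9, Sgk1 and Pdk4 differed by less than 2-fold at their brightest probe set, and Hsd11b1 lay near background. Signals are linear intensities in arbitrary units, and the floor, under which a value is treated as unmeasured, was 10.5, the 40th percentile of all values. A gene was represented by its brightest probe set and called higher or lower when the difference was 2-fold or more and neither signal was under the floor. Of the 7 listed genes above the floor on both arrays, 1 was called lower, against 1.58% of all 11565 such genes, and 0 were called higher, against 1.6%. The split over all genes, 185 higher and 183 lower, was 115 and 296 with equal medians and 315 and 103 with equal spiked controls. Depp1 and Star were above the floor in wild-type follicles alone, and both lay at least 2-fold from it, as did 14.6% of the 1048 genes in that position. Hsd11b1 was above it in transgenic follicles alone by under 2-fold, where 14.9% of 1432 genes reached 2-fold. These counts rest on the contrast by which the genes were chosen and support nothing by themselves. Over all 10 genes, bounds included, the median log2 ratio of transgenic over wild-type was -0.20, against 0.01 over the 14045 genes above the floor on at least 1 array.

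**Figure D1:**
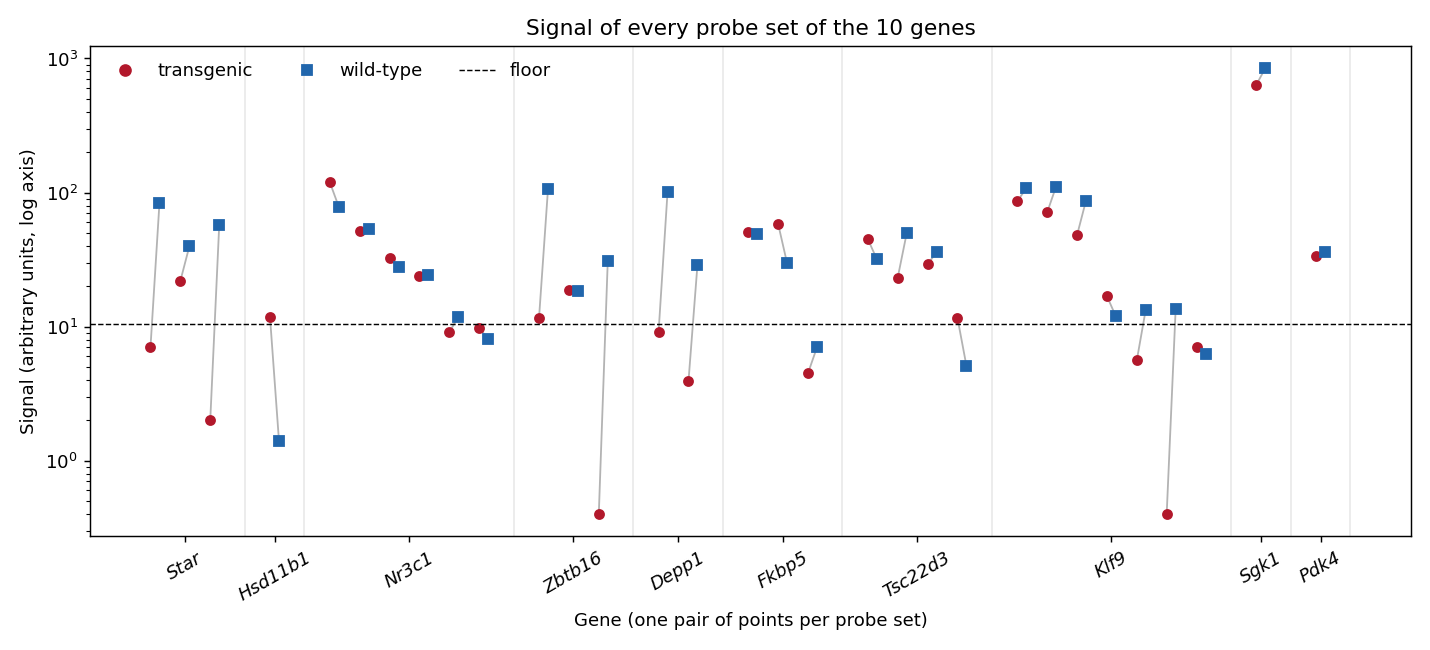
Signal of each of the 31 probe sets of the 10 genes on a log axis, in arbitrary units, with the transgenic array as circles, the wild-type array as squares, and the floor of 10.5 as a dashed line. The pairs of Zbtb16, Depp1 and Star include transgenic signals near or under the floor and far below the wild-type ones, while Sgk1, the pair at the top, differs little.

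Star, whose protein delivers cholesterol to the mitochondrial side-chain cleavage enzyme, was low on the transgenic array with every probe set. The brightest, 1449201_at, read 7.0 in transgenic follicles and 82.8 in wild-type follicles, at least 7.89-fold lower. A second, 1418728_at, read 2.0 in transgenic follicles and 56.8 in wild-type follicles, at least 5.41-fold lower. The third, 1418729_at, read 21.9 in transgenic follicles and 39.6 in wild-type follicles and was thus 1.81-fold lower, short of 2-fold. Star therefore had the same direction at all 3 probe sets but no signal above the floor on the transgenic array at 2 of them. Hsd11b1 had 1 probe set, which read 11.7 in transgenic follicles and 1.40 in wild-type follicles. Both values are near or under the floor, so no level of this enzyme was measured with any certainty.

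Nr3c1 had 6 probe sets, of which 4 exceeded the floor on both arrays. The brightest, 1421867_at, read 119 in transgenic follicles and 78.3 in wild-type follicles, a 1.52-fold difference. The others did not share it: 1460303_at read 51.7 in transgenic follicles and 53.7 in wild-type follicles, and 1421866_at read 23.9 in the transgenic pool and 24.1 in the wild-type pool. The remaining one of the 4, 1457635_s_at, read 32.3 in transgenic follicles and 27.7 in wild-type follicles. The log2 ratios of these 4 thus ran from -0.06 to 0.61, and receptor RNA was above the floor in both pools. The only spread available here, the SD between log2 ratios from different probe sets of 1 gene, was 0.51 among dim genes, 0.42 among intermediate ones and 0.27 among bright ones. It comes from the same 2 arrays and so does not cover differences between RNA pools or hybridisations.

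Zbtb16 encodes a zinc finger transcriptional repressor of the BTB family and is among the strongest glucocorticoid-induced genes in several human cell types. Its brightest probe set, 1439163_at, read 11.6 in transgenic follicles and 106 in wild-type follicles, 9.14-fold lower, the ratio with rank 4 from the lowest among the 11565 genes above the floor in both pools. A second, 1419874_x_at, read 0.400 in transgenic follicles and 30.9 in wild-type follicles, at least 2.94-fold lower. The third, 1427638_at, read 18.7 in transgenic follicles and 18.3 in wild-type follicles, a log2 ratio of 0.03. The probe sets of Zbtb16 were thus split, with 2 far lower on the transgenic array and 1 dim probe set alike on both. Which transcripts each one reads is not known here.

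Depp1, a small protein linked to autophagy that progesterone was first found to induce in the uterine lining, was lower with both of its probe sets. The brighter, 1433836_a_at, read 9.10 in transgenic follicles and 101 in wild-type follicles, at least 9.61-fold lower. The dimmer, 1433837_at, read 3.90 in transgenic follicles and 28.7 in wild-type follicles, at least 2.73-fold lower. Depp1 was the only listed gene at least 2-fold lower with every one of 2 or more probe sets measured in wild-type follicles, and 12 of the 5716 genes with that many (0.21%) had this pattern. Bounds of this kind are uncertain, because 3 of 27 control probe sets with no target in the mouse also exceeded the floor on the transgenic array, the brightest at 15.8. On the wild-type array 0 of them did, with 8.5 as the highest. The transgenic signal of Zbtb16, 11.6, also lies in the range of these controls, so its ratio is no firmer than the bounds.

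Genes whose pair of signals lay closest to these were sought by the distance between log2 signals over the 2 arrays. Only genes with both signals above the floor were candidates, which left out those, like Star, under it on the transgenic array. Of the candidates, the nearest to Depp1, its own transgenic signal set to the floor, was Zbtb16 at a distance of 0.16. Ddhd1 at 0.64 and Scrg1 at 0.86 followed. Those nearest to Zbtb16, both signals above the floor, were Ddhd1 at 0.48, Calcb at 0.78 and Cyp2b10 at 0.89. Ddhd1, a phospholipase gene, read 16 in transgenic follicles and 117 in wild-type follicles, 7.29-fold lower. The 2 arrays give only a pair of values per gene, so likeness here means similar brightness and a similar ratio and nothing more.

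**Figure D2:**
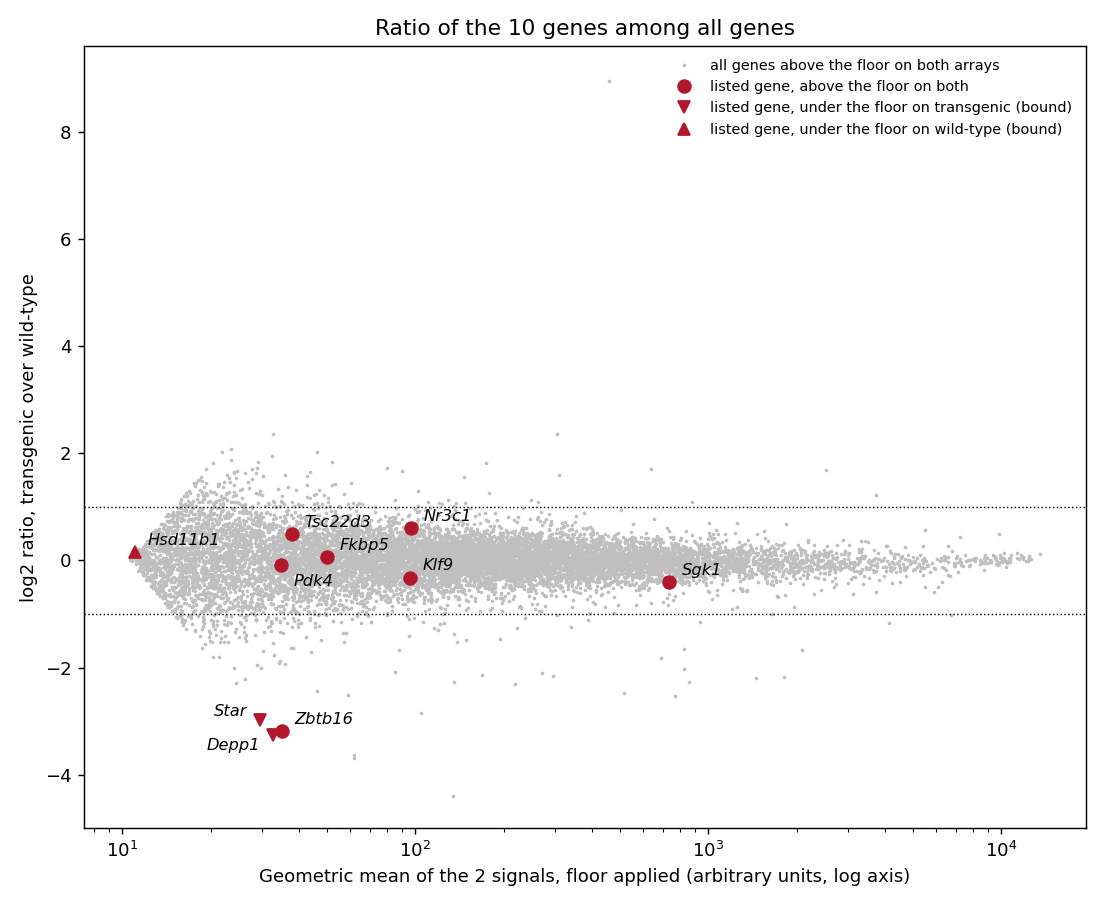
Log2 ratio of transgenic over wild-type against the geometric mean of both signals (arbitrary units, log axis) for all genes with both signals above the floor (small points) and the 10 genes (large symbols, with triangles where 1 signal was under the floor and the ratio is a bound). Dotted lines mark 2-fold. Zbtb16, Depp1 and Star lie near -3 and the others between -0.41 and 0.61.

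Sgk1, a kinase that regulates ion channels and is a classical glucocorticoid-induced gene, was the member with the most secure signal. Its 1 probe set read 637 in transgenic follicles and 845 in wild-type follicles, 1.33-fold lower, a log2 ratio of -0.41 beside an SD of 0.27 between probe sets of such bright genes. This is the gene whose promoter window shown above holds the palindrome. Pdk4, a kinase that shuts down pyruvate dehydrogenase, read 33.7 in transgenic follicles and 35.7 in wild-type follicles, a log2 ratio of -0.08.

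Klf9, a Krüppel-like transcription factor that is induced early by glucocorticoids, had 7 probe sets, of which 4 exceeded the floor on both arrays. The brightest, 1428288_at, read 85.9 in transgenic follicles and 107 in wild-type follicles. The next, 1456341_a_at, read 71.0 in transgenic follicles and 111 in wild-type follicles, and 1428289_at read 48.0 in the transgenic pool and 86.9 in the wild-type pool. These 3 well-measured probe sets were all lower on the transgenic array, by 1.25-fold, 1.56-fold and 1.81-fold, and none reached 2-fold. The dimmest of the 4, 1436952_at, was close to the floor and went the other way, with 16.9 in transgenic follicles and 11.9 in wild-type follicles. Above the floor in wild-type follicles alone were 1422264_s_at, at 13.4, and 1452723_at, at 13.5. They read 5.60 and 0.400 in transgenic follicles, and 1436763_a_at lay under the floor on both arrays.

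Fkbp5, whose protein lowers the hormone affinity of the receptor and which forms a feedback loop with it, was not lower on the transgenic array. Its probe set 1416125_at read 50.9 in transgenic follicles and 48.9 in wild-type follicles, and 1448231_at read 58.3 in transgenic follicles and 29.7 in wild-type follicles. These are log2 ratios of 0.06 and 0.97, so both of these probe sets were at or above the wild-type value and neither passed 2-fold. A further one, 1447736_at, lay under the floor on both arrays.

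Tsc22d3, which encodes the leucine zipper protein GILZ that carries part of the anti-inflammatory action of glucocorticoids, gave discordant values among its 4 probe sets. The brightest by mean, 1425557_x_at, read 45.0 in transgenic follicles and 31.9 in wild-type follicles, while 1420772_a_at read 23.1 in transgenic follicles and 49.5 in wild-type follicles, 2.14-fold lower. A further one, 1425281_a_at, read 29.1 in transgenic follicles and 35.9 in wild-type follicles, and 1444365_at, at 11.6 in the transgenic pool and 5.10 in the wild-type pool, lay near or under the floor. The log2 ratios of the first 3 were 0.50, -1.10 and -0.30, and dropping the probe sets with a suffix for shared sequence turned the value for the gene to -1.10. Tsc22d3 therefore had no settled direction. It lies on the X chromosome, and the pools differed in sex-linked RNA: Xist read 1146 in transgenic follicles and 352 in wild-type follicles, and Eif2s3y read 0.400 in the transgenic pool and 191 in the wild-type pool. The part of this difference in the results was not tested.

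The wider pathway gave few other large differences. Of 33 genes listed as glucocorticoid-induced, 28 exceeded the floor on both arrays, 1 of them (Zbtb16) was called lower and 0 higher, and 3 more had a bound of at least 2-fold, Depp1 and Gpx3 lower and Fam107a higher. Of the 32 genes above the floor on at least 1 array, 20 had a ratio under 1, against 48.7% of all genes so measured. This count includes genes chosen by the same contrast, and without the 10 genes it was 15 of 25. Of the 32, it was 25 with equal medians and 15 with equal spiked controls. The median log2 ratio was -0.13 over the 32, and -0.11 over the 25 that are not among the 10 genes. With the arrays scaled to equal spiked controls the median was 0.06, beside 0.19 for all genes, so its sign depends on the scaling.

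Fam107a, an actin-associated protein known to be induced by glucocorticoids and stress in brain, went against Zbtb16 and Depp1. Its brightest probe set read 151 in transgenic follicles and 6.60 in wild-type follicles, at least 14.4-fold higher. The other probe sets read 44.0 and 17.3 on the transgenic array and 6.80 and 1.0 on the wild-type array, so all 3 were above the floor in transgenic follicles alone. Among the remaining induced genes, those with the largest ratios above the floor were Dusp1, a phosphatase that switches off mitogen-activated kinases, with 75.5 in transgenic follicles and 129 in wild-type follicles, and Cdkn1c, a cell cycle inhibitor, with 39.1 in the transgenic pool and 63.9 in the wild-type pool. Angptl4, an inhibitor of lipoprotein lipase, read 154 in transgenic follicles and 252 in wild-type follicles, and Klf15, a transcription factor, 56.6 in the transgenic pool and 37.3 in the wild-type pool. None of these 4 passed 2-fold. Gpx3, an extracellular glutathione peroxidase, read 4.90 in transgenic follicles and 25.6 in wild-type follicles.

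**Figure D3:**
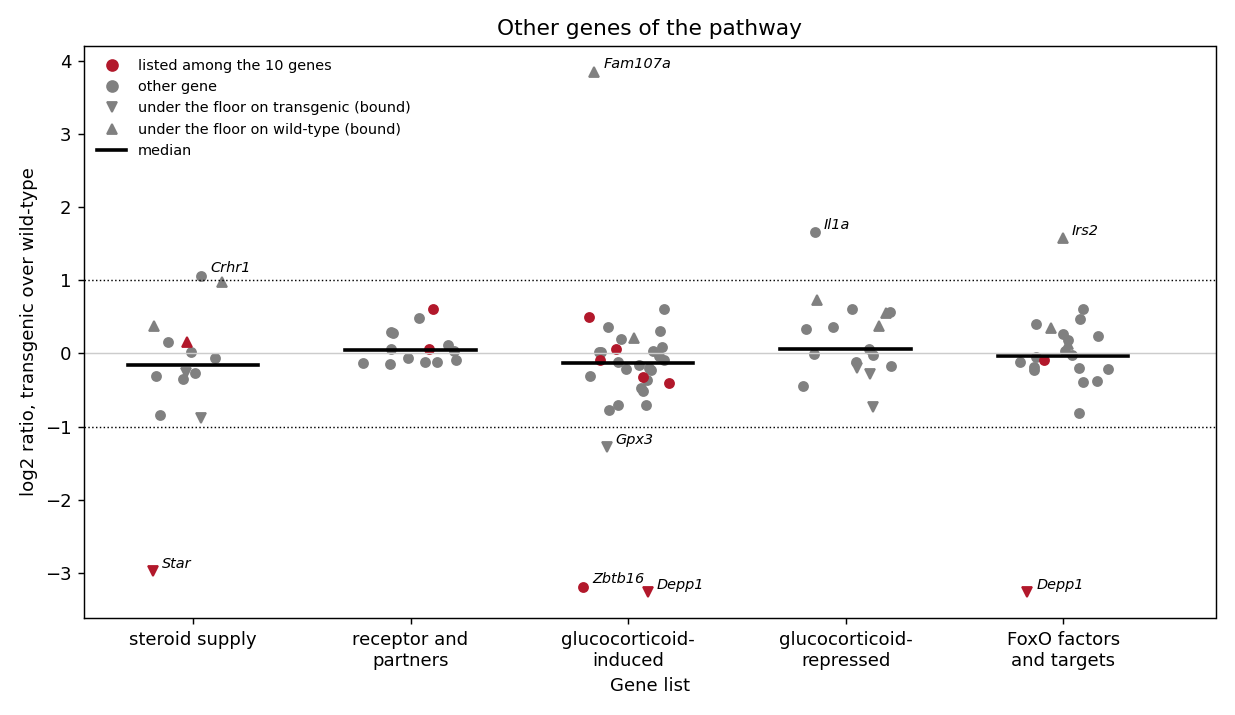
Log2 ratio of transgenic over wild-type for each gene above the floor on at least 1 array in 5 lists, with the 10 genes in red, others in grey, triangles for bounds and a black bar at the median. Most genes lie between the dotted 2-fold lines, and the medians run from -0.16 for steroid supply to 0.06 for glucocorticoid-repressed genes.

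Many genes of steroid supply were dim. Of the 20 measured, 6 lay under the floor on both arrays, where no difference could be seen, 8 exceeded the floor on both arrays, 1 was called higher and 0 lower, and Star was the only one with a bound of at least 2-fold. Cyp11a1, the side-chain cleavage enzyme that works directly after Star, read 170 in transgenic follicles and 153 in wild-type follicles with 1 probe set, while its other 2 lay under the floor on both arrays. Cyp21a1, which makes precursors of corticosterone, read 2.20 in transgenic follicles and 19.3 in wild-type follicles, at least 1.84-fold lower. Hsd3b1, also of this list, went the other way, at 20.6 in transgenic follicles and 1.40 in wild-type follicles, at least 1.96-fold higher. Crhr1, the receptor of corticotropin-releasing hormone, read 93.1 in transgenic follicles and 44.5 in wild-type follicles, 2.09-fold higher, but its other probe set gave a log2 ratio of 0.24. H6pd, which supplies the cofactor of the Hsd11b1 enzyme, read 18.5 in transgenic follicles and 33.0 in wild-type follicles, 1.78-fold lower. Stard3 and Tspo, which also handle cholesterol for mitochondria, had log2 ratios of -0.35 and -0.31. The list had a median of -0.16, which was 0.03 with equal spiked controls.

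The partners of the receptor read alike on both arrays. Of 14 genes above the floor on both arrays, Nr3c1 and Fkbp5 included, 0 were 2-fold apart, and their log2 ratios lay between -0.14 for the chaperone Hspa8 and 0.61 for Nr3c1 itself. Ncoa1, a coactivator, followed at 0.48, with 0.41 at its other probe set, then the phosphatase Ppp5c at 0.30 and the cochaperone Sgta at 0.28. The mineralocorticoid receptor Nr3c2, which also binds glucocorticoids, lay under the floor on both arrays.

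Of 21 genes known to be repressed by glucocorticoids, 11 exceeded the floor on both arrays, 1 was called higher and 0 lower, with a median of 0.06 over 17 genes, which was -0.08 with equal medians. The higher one was the cytokine Il1a, which was dim, at 42.8 in transgenic follicles and 13.6 in wild-type follicles, 3.15-fold higher. The chemokine Cxcl1 (log2 ratio 0.61, but at least 1.88-fold lower at another probe set), the adhesion molecule Vcam1 (0.57) and the keratin Krt17 (-0.45, with -0.04 at its other probe set) followed in size.

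Among FoxO factors and their known targets, 18 of 23 measured genes exceeded the floor on both arrays and 0 were 2-fold apart, with a median of -0.03 over 22 genes, which was 0.16 with equal spiked controls. Depp1 was the only one with a bound of at least 2-fold lower, and Irs2, an adaptor of the insulin receptor, had one of at least 2.98-fold higher, at 31.3 in transgenic follicles and 8.60 in wild-type follicles. Foxo3 read 1144 in transgenic follicles and 869 in wild-type follicles, a log2 ratio of 0.40, with -0.05 and -0.03 at its other probe sets. Bnip3, a mitophagy receptor, was at -0.82, the stress protein Sesn3 at 0.60, with 0.06 at its other probe set, and the ubiquitin ligase subunit Fbxo32 at 0.47.

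Relatives of the listed genes were also compared. The Krüppel-like factors included 12 above the floor on both arrays, 0 of them 2-fold apart, with Klf16 at -0.94 and Klf12 at 0.61 farthest out, and Klf2, which was dim, at least 2.13-fold lower. Sgk3 had a log2 ratio of 0.30 beside the -0.41 of Sgk1, and Sgk2 was at least 2.40-fold lower, at 1.20 in transgenic follicles and 25.2 in wild-type follicles. Pdk1, Pdk2 and Pdk3 lay between -0.10 and 0.36, and Tsc22d1, Tsc22d2 and Tsc22d4 between -0.09 and 0.29. Of the FKBP family, Fkbp14 was called lower at 13.6 in transgenic follicles and 29.6 in wild-type follicles. Among BTB zinc finger genes, 1 of 8 above the floor on both arrays, Zbtb16, was called lower, and the next were Zbtb32 at -0.86, with -0.15 at its other probe set, Zbtb17 at 0.55 and Zbtb20 at -0.54, with log2 ratios from -0.52 to 1.20 at others and a bound of at least 2.73-fold higher at a further one.

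In bulk RNA, fewer cells of a type and less RNA per cell cannot be told apart, so the marker lists are given beside these values. Markers of the hair shaft (9 genes, median log2 ratio 0.05) and inner root sheath (8 genes, 0.00) were bright and alike on both arrays. Markers of outer root sheath and basal cells had ratios under 1 in 8 of 8 genes, with a median of -0.31. With equal spiked controls these values were 5 of 8 and -0.12. Their summed signal was 11935 in transgenic follicles and 14251 in wild-type follicles. Sox9, among these genes, had a log2 ratio of -0.21 at its brightest probe set but 0.16 and 0.25 at its others. Markers of Schwann cells and nerve were under 1 in 4 of 4 genes, with a median of -0.89 and a summed signal of 120 in transgenic follicles and 211 in wild-type follicles. Markers of melanocytes were under 1 in 5 of 7 genes, with a median of -0.28. Of 6 markers of the interfollicular epidermis, Krt10, Krt77 and Lor were above the floor, with ratios above 1 and a median of 0.73, while Krt1, Krt2 and Flg lay under it on both arrays. Krt77 was called higher, at 63.8 in transgenic follicles and 16.6 in wild-type follicles, 3.84-fold higher. Dermal fibroblast markers had a median of 0.34 over 7 genes. Dermal papilla markers had a median of 0.12 over 6 genes, which was -0.02 with equal medians, and Rspo3 was called 2.37-fold higher. Endothelial markers above the floor on at least 1 array were split, 2 above 1 and 2 under 1, with Cdh5 called 3.09-fold higher. Those of skeletal muscle were likewise split, 2 and 2, with Acta1 at least 3.55-fold higher. Of 7 sebocyte and adipocyte genes, Adipoq, the adipocyte hormone adiponectin, was called lower at 65.3 in transgenic follicles and 139 in wild-type follicles, while Lep, the adipocyte hormone leptin, went the other way at 26.7 in transgenic follicles and 4.60 in wild-type follicles, at least 2.54-fold higher. The median of this list was 0.12, which was -0.02 with equal medians. Of 10 immune markers, 5 were above the floor on at least 1 array, 3 with a ratio above 1 and 2 under 1. Their median of 0.98 was the bound of C1qa. Cd68 and Zap70 were the 2 under 1, with log2 ratios of -0.19 and -0.08. Cd74, a chaperone of antigen presentation, was called higher at 22.9 in transgenic follicles and 11.2 in wild-type follicles. H2-Aa, a class II histocompatibility chain, was at least 4.04-fold higher and the complement gene C1qa at least 1.97-fold. The T cell genes Cd3e and Cd3g and the pan-leukocyte gene Ptprc lay under the floor on both arrays. The part of these shifts in the values of Zbtb16, Depp1 and Star was not tested.

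**Figure D4:**
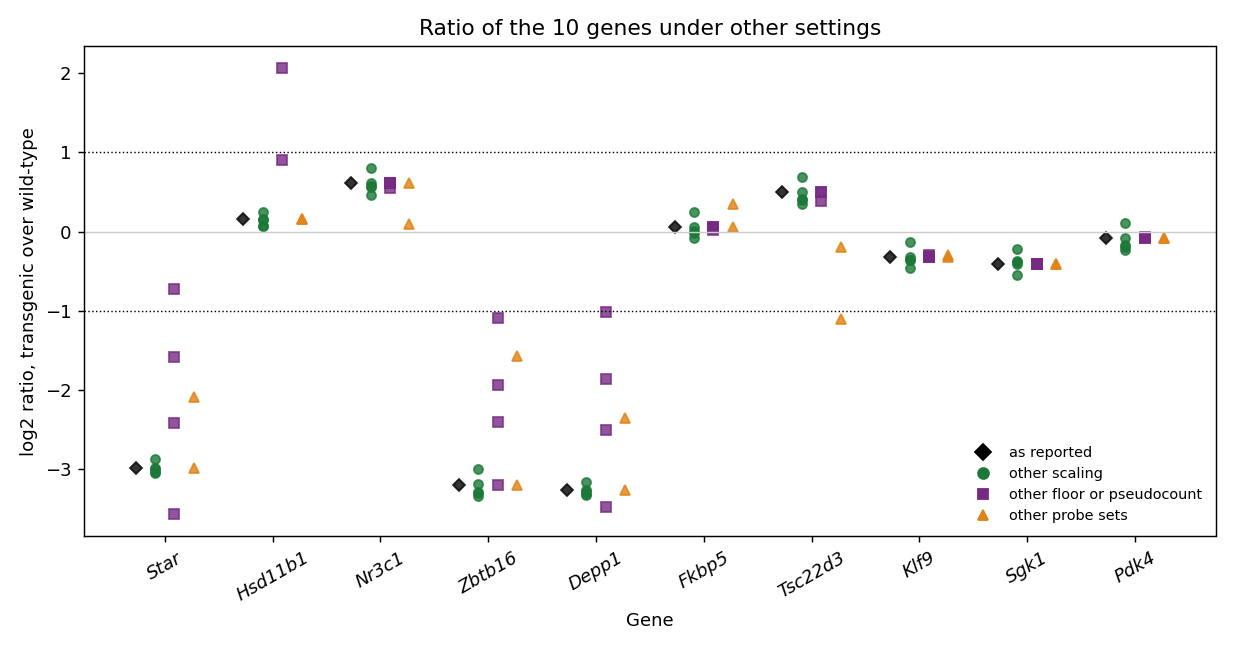
Log2 ratio of transgenic over wild-type for the 10 genes as reported (diamonds) and with other scalings (circles), other floors or a pseudocount (squares) and other choices of probe sets (triangles). Zbtb16, Depp1 and Star stay under 0 throughout but shrink as the floor rises, to -1.08, -1.01 and -0.73 at a floor of 50.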

How the data were processed

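The deposited values are linear intensities, 1 for each probe set. The authors had scaled them to a 2% trimmed mean of 100, as the values show. The summary algorithm is not given in the sources used here. RNA was isolated with Trizol and hybridised by the manufacturer's protocol, per the labels. Such scaling hides a shift shared by all genes.

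The 64 control probe sets were left out, and both columns were rescaled to equal trimmed means. Probe sets with several symbols were left unnamed. Names were checked by gene identifier against RefSeq (GRCm38.p6), where 34741 of 34945 probe sets with 1 symbol matched. Values under the floor were set to it, so that ratios against it are bounds. Every probe set of the 10 genes is given. From each of 11 gene lists, up to 4 further genes with the largest ratios above the floor are named. Those whose bound reached 2-fold are named too. So are the 3 genes nearest to Zbtb16 and to Depp1 among those above the floor on both arrays. Cyp11a1, Cyp21a1, Hsd3b1 and Nr3c2 are given besides. Marker genes were taken from 13 lists. The members and lists were chosen with earlier results of these data known. There was 1 array per group and thus no test, and their number limits the precision. The calling rule was tested on simulated data. Python 3.11.15 with pandas 2.3.3 and statsmodels 0.14.6 was used. Alternatives were 5 scalings, 3 floors, a pseudocount, other probe set choices and thresholds of 1.5-fold and 3-fold.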

Additional observations from a re-analysis of the deposited data

How the results depend on the processing

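Zbtb16 and Depp1 kept a log2 ratio of -1 or lower in 11 of 11 alternatives and Star in 10 of 11. The ranges were from -3.33 to -1.08, -3.47 to -1.01 and -3.56 to -0.73. Where the transgenic signal was under the floor, the ratio followed from the wild-type signal and the chosen floor alone. Such alternatives are therefore no independent support. Counting bounds, between 2 and 4 genes were lower in every alternative counted by gene, and 7 probe sets were. Of those above the floor on both arrays, the count called lower was 1 as reported. It was 3 with the floor at the 20th percentile and 0 at the 60th percentile or at 50. It was 2 with the mean over probe sets, without the probe sets with a suffix for shared sequence, or counting probe sets. Of the 10 genes, 1 was higher with the floor at the 20th percentile (Hsd11b1, from a wild-type signal near background) or a threshold of 1.5-fold (Nr3c1). Fkbp5, Tsc22d3 and Pdk4 changed sign in 2, 2 and 1 alternatives.

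Over all genes, where 185 were higher and 183 lower as reported, the counts were 115 and 296 with equal medians, 315 and 103 with equal spiked controls, 845 and 685 with the floor at the 20th percentile, 50 and 61 at the 60th, 22 and 37 at 50, and 53 and 76 with a pseudocount. The mean over probe sets gave 103 higher. Thresholds of 1.5-fold and 3-fold gave 735 and 784, and 27 and 40, and counting probe sets gave 576 and 381. Fewer or more genes pass a floor or threshold by construction, and other causes were not tested. The median of the Sgk family, -0.41, was -0.05 with the floor at the 60th percentile or at 50, where fewer genes were left. Medians of the other 10 gene lists moved by less than the spread between probe sets, which does not measure the precision of a median. Most of these medians changed sign in some alternative. For the receptor and its partners the median was 0.04 as reported and -0.10 with equal medians. No paired analysis was possible because each group has 1 array. Signals near background limit the 3 large ratios.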
